A study of Mus musculus with 27 samples.

Results

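Neutrophils are short-lived granulocytes that are made in the bone marrow, circulate in blood and enter tissues when called by chemoattractants. They carry granules packed with antimicrobial proteins, and they leave the blood through receptors that read chemokines of the CXC class, a family of small secreted proteins. In the liver they pass through the sinusoids, the wide capillaries where the resident macrophages, the Kupffer cells, also sit. The genes followed here are 8 markers of neutrophils (S100a8, S100a9, Ngp, Ly6g, Cxcr2, Csf3r, Retnlg and Il1b) and, kept apart from them, the 2 chemoattractants Cxcl1 and Cxcl2. They were chosen by gene name, matched by identifier, and make up 10 of the 51826 genes listed in the deposited tables. All 10 were found, and 9 of them were among the 16428 genes abundant enough to be tested. Ly6g was not.

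Expression was measured by bulk RNA sequencing of whole liver from BALB/C wildtype mice over a reproductive cycle, 1 library per animal and 27 in all. The 7 groups were non-pregnant nulliparous mice (NUL, 4 animals), mice on lactation day 10 (LAC, 3), mice 2, 4, 6 and 8 days after their pups were weaned (involution days ID2, 3 animals; ID4, 4; ID6, 6; ID8, 3), and mice whose liver had regressed for 4 weeks after weaning (REG, 4). Animals were of matched age. Breeding took place at 10 to 12 weeks, litters were evened in size, and weaning fell between days 10 and 14 of lactation. The labels give no difference of genotype or drug between the groups. Title numbers and sequencing runs were spread unevenly over the stages. Title numbers under 200 were those of all 3 ID8 animals, 2 of 3 in ID2, 2 of 4 in ID4 and 0 in the other groups. Libraries sequenced in 2 runs were 4 of 4 in ID4 but 1 of 4 in REG.

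Library totals ran from 41120633 to 75664523 estimated reads, and the 10 genes together took between 0.000443% and 0.00259% of them. A count of 0 in a library allows up to 3 counts, which is 0.0360 to 0.0777 CPM (counts divided by library size after TMM scaling) depending on the library. Such limits cover counting error only. The tissue label held, since 6 hepatocyte markers summed to means of 77558 to 141050 TPM (the deposited level, scaled for gene length) in the 7 groups. RNA of exocrine pancreas was present in the library ID2_31, at 1814 TPM summed over 7 markers, and at 119 TPM in ID4_15. In the other libraries that sum was at most 37.4 TPM. Hemoglobin and other red cell genes summed to 196.5 to 847 TPM in the ID6 libraries and 51.9 to 107 TPM in the ID8 libraries, against 1144 to 3820 TPM in all other libraries. Whether livers were flushed of blood is not given in the sources used here.

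Most of these genes were scarce. Averaged over the 27 libraries and scaled for length, S100a9 was at 8.36 TPM, Cxcl1 at 7.79 TPM, S100a8 at 4.47 TPM and Il1b at 3.40 TPM. Retnlg averaged 1.06 TPM and Csf3r 0.877 TPM. Ngp (0.440 TPM), Cxcl2 (0.132 TPM), Cxcr2 (0.110 TPM) and Ly6g (0.0656 TPM) lay lower still. In mean TPM, 8 of the 10 genes were lowest in LAC and 6 were highest in ID4. The exceptions to the first were Ngp, lowest in ID2, and Ly6g, lowest in REG. The order depended on the unit. In CPM, Csf3r (2.72 in ID4, 2.41 in ID6) and Il1b (3.77 and 3.56) had their highest means in ID4, not in ID6 as in TPM. At few counts TPM was uneven, and 1 count of Ly6g was 0.25 TPM in LAC_200 and 0.03 TPM in ID2_39. Neighbouring stages in each gene's order of mean TPM overlapped between animals in 58 of 60 pairs, so the order itself is mostly within the spread. The other 2 pairs were both REG next to LAC, for Csf3r and for Cxcl1. The same count was not made over all genes, so it is not a trait of these 10.

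**Figure D1:**
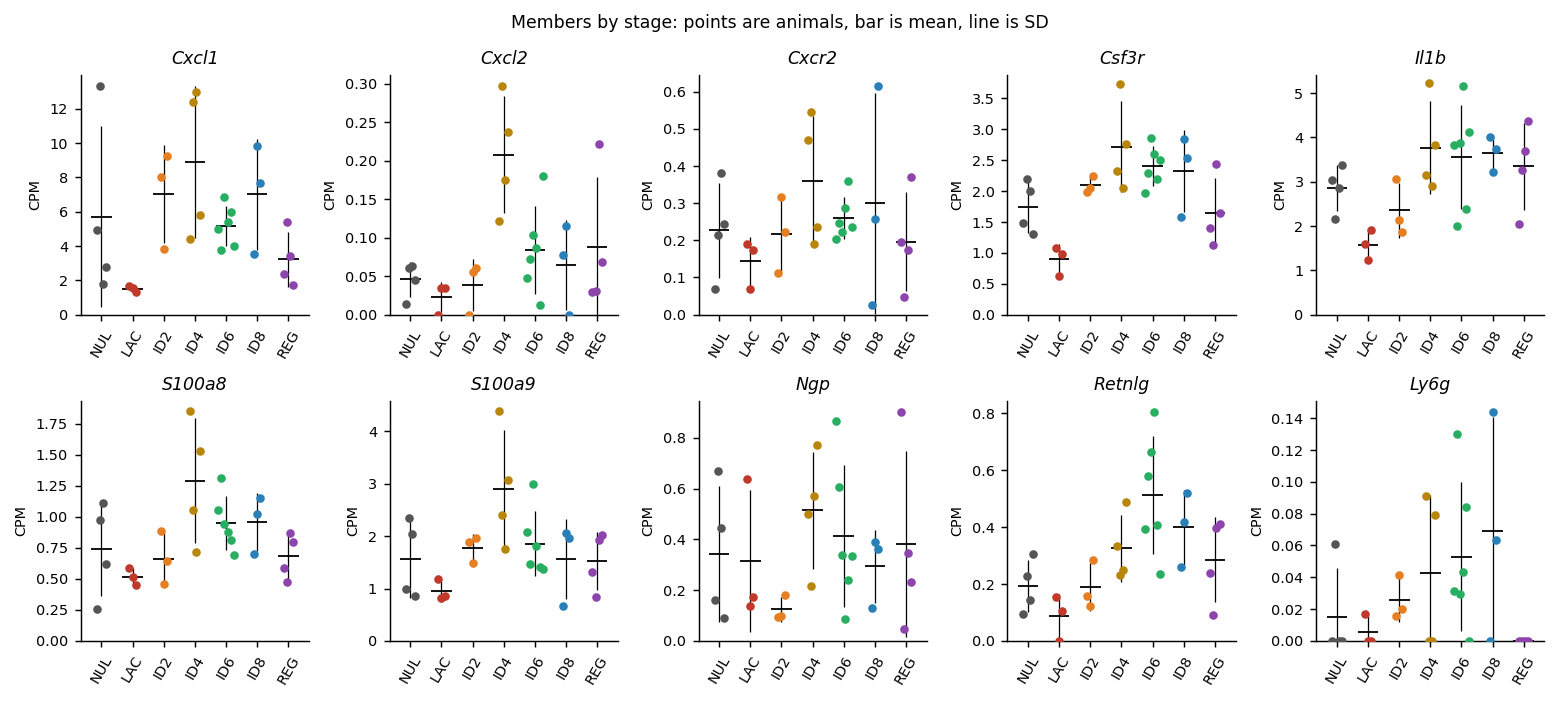
CPM of each gene (vertical axes, from 0) in each animal (points) by stage, with the mean (bar) and SD (line). The LAC animals are the 3 lowest of 27 for Cxcl1 and Csf3r, and the highest values of Cxcl2 and S100a9 are in ID4.

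Cxcl1 and Cxcl2 are ligands of the receptor CXCR2 and draw neutrophils out of the blood. Both lie on chromosome 5 of GRCm38, on the plus strand, Cxcl1 (ENSMUSG00000029380) at 90891241 to 90893115 and Cxcl2 (ENSMUSG00000058427) at 90903871 to 90905938, 10755 bases apart. The 250 bases before each RefSeq start (GRCm38.p6) are shown because both hold the same match to GGANTTTCC, a motif of the NF-kB type, marked in capitals.
Cxcl1 (chr5:90890995-90891244, plus strand): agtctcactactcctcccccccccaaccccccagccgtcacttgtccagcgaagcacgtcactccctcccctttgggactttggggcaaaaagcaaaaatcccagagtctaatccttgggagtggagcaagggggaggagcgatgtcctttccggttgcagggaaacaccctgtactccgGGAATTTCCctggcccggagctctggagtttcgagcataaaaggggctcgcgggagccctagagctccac
Cxcl2 (chr5:90903649-90903898, plus strand): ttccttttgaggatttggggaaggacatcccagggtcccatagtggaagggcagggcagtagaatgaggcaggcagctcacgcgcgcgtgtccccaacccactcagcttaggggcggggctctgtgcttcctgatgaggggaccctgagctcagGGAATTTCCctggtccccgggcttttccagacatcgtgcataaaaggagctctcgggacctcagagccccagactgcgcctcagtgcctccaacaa
The match lies 70 to 62 bases before the start of Cxcl1 and 96 to 88 bases before that of Cxcl2, on the gene's own strand. Searched on both strands, 350 of 32817 upstream windows of this length in RefSeq hold the motif (1.07%), and no other of the 10 genes does. TTGCGCAA, a motif of the C/EBP type, was in none of the 10 (0.165% of all windows), and the looser TTNNGCAAT was in Ngp alone (1.93% of all windows), on the opposite strand. These are letters found in the windows and say nothing of binding.

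Cxcl1 was low in every lactating liver. It stood at 1.66, 1.56 and 1.33 CPM in the 3 LAC animals and at 4.96, 13.4, 1.77 and 2.78 CPM in the 4 NUL animals. No LAC animal reached the lowest NUL animal, but that gap was small and 1 NUL animal, NUL_221, was far above the other 3. After weaning the values were 8.05, 3.81 and 9.25 CPM in ID2 and 4.39, 12.4, 12.99 and 5.82 CPM in ID4. ID6 ran from 3.75 to 6.83 CPM with a median of 5.20 CPM. ID8 held 3.52, 9.85 and 7.66 CPM, and REG held 2.35, 5.37, 3.41 and 1.75 CPM. Every animal outside lactation was thus above all 3 lactating animals.

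Cxcl1 fell by 1.91 on the log2 scale from NUL to LAC (SE 0.603, edgeR quasi-likelihood test, Benjamini-Hochberg adjusted p = 0.0448), a mean of 1.52 ± 0.166 CPM (SD, n = 3) against 5.71 ± 5.26 CPM (n = 4). That call was lost when any of NUL_220, NUL_221, LAC_200, LAC_213 and LAC_240 was left out. Without NUL_221 the log2 fold change was -1.05 (adjusted p = 0.228, edgeR). Of 9 other fits at the same threshold 3 called it, and its adjusted p was 0.198 with only the NUL and LAC libraries in the fit (edgeR). From LAC to ID2 Cxcl1 rose by 2.21 (SE 0.632, edgeR adjusted p = 0.0215) to 7.03 ± 2.86 CPM (n = 3). The second call was lost without LAC_200, LAC_213, LAC_240, ID2_224 or ID2_39, with log2 fold changes of 1.96 to 2.51 over all 6 omissions and edgeR adjusted p-values up to 0.0742.

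Cxcl2 was sparse in all groups. Its counts were 1, 4, 4 and 3 in NUL, 0, 2 and 2 in LAC, and 0, 4 and 3 in ID2. In ID4 they were 8, 18, 12 and 15. The 4 ID4 animals were above every NUL, LAC and ID2 animal, although a single animal each of ID6 (13 counts), REG (14) and ID8 (8) reached the same range of counts. Against NUL, ID4 was 2.15 higher on the log2 scale (SE 0.835), which did not pass the test (edgeR adjusted p = 0.149). ID6 ranged from 1 to 13 counts, ID8 held 3, 8 and 0, and REG held 2, 2, 14 and 5.

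CXCR2, the receptor for these ligands, and the receptor of granulocyte colony-stimulating factor, encoded by Csf3r, sit on the neutrophil surface, and the second carries the main growth signal of the lineage. Csf3r (ENSMUSG00000028859, chromosome 4, 126024550 to 126044440, plus strand) had the lowest p of the 9 tested genes in the joint test of stage. It was at 1.48, 2.19, 2.00 and 1.31 CPM in NUL and at 1.09, 0.619 and 0.987 CPM in LAC. It was at 1.98, 2.05 and 2.25 CPM in ID2 and at 2.33, 3.73, 2.05 and 2.76 CPM in ID4. LAC lay below every other library, and the ID2 animals lay close together. ID6 ran from 1.97 to 2.87 CPM with a median of 2.40 CPM, ID8 held 1.58, 2.85 and 2.54 CPM, and REG held 1.40, 1.13, 2.44 and 1.64 CPM.

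Csf3r fell by 0.96 on the log2 scale from NUL to LAC (SE 0.268, edgeR adjusted p = 0.0185), from 1.75 ± 0.422 CPM (SD, n = 4) to 0.897 ± 0.246 CPM (n = 3). The adjusted p was 0.136 without LAC_213, 0.0633 without NUL_221 and 0.0521 without NUL_226 (edgeR). With only the NUL and LAC libraries in the fit it was 0.0661. On the log2(TPM + 1) scale, where the level of Csf3r is mostly below the pseudocount, the change was -0.37. From LAC to ID2 Csf3r rose by 1.22 (SE 0.283, edgeR adjusted p = 0.00428) to 2.09 ± 0.137 CPM (n = 3). That rise passed the test in all 6 fits that left out 1 animal and in all 9 other fits at the same threshold, with log2 fold changes of 0.41 on the log2(TPM + 1) scale and up to 1.38 elsewhere.

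Cxcr2 (ENSMUSG00000026180, chromosome 1, 74153989 to 74161246, plus strand) was sparse, with 1 to 39 counts in a library. Its means were 0.227 ± 0.129 CPM in NUL (SD, n = 4), 0.144 ± 0.0656 in LAC (n = 3), 0.217 ± 0.103 in ID2 (n = 3) and 0.361 ± 0.174 in ID4 (n = 4). NUL, LAC and ID2 overlapped, and in ID8 the 3 animals spread from 0.0259 to 0.616 CPM, wider than the whole range of group means. No comparison called it, and neither did the joint test of any difference among stages (edgeR adjusted p = 0.666).

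Il1b encodes interleukin-1 beta, an inflammatory cytokine made by neutrophils and also by monocytes and macrophages, so it marks neutrophils less strictly than the others. It lies on chromosome 2 at 129364570 to 129371139, minus strand (ENSMUSG00000027398). Il1b was at 3.04, 2.16, 2.85 and 3.37 CPM in NUL, at 1.60, 1.24 and 1.90 CPM in LAC, and at 3.06, 2.14 and 1.86 CPM in ID2. The LAC and NUL animals did not overlap, while ID2 reached down into LAC. In ID4 it was at 3.15, 5.22, 2.90 and 3.82 CPM, and in ID8 at 4.01, 3.22 and 3.74 CPM. ID6 ran from 2.00 to 5.15 CPM (median 3.86), and REG held 2.04, 3.27, 3.69 and 4.38 CPM. The fitted log2 fold change from NUL to LAC was -0.85 (SE 0.287, edgeR adjusted p = 0.0535), just outside the threshold, and from LAC to ID2 it was 0.57 (SE 0.304, adjusted p = 0.214). The first passed in 4 of 9 other fits, among them DESeq2 (adjusted p = 0.0281).

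S100a8 and S100a9 encode the subunits of calprotectin, the most abundant protein of the neutrophil cytosol, and lie 22596 bases apart on chromosome 3 (S100a8, ENSMUSG00000056054, 90668978 to 90670035, plus strand; S100a9, ENSMUSG00000056071, 90692632 to 90695721, minus strand). S100a9 was at 0.989, 2.35, 2.04 and 0.866 CPM in NUL, at 1.19, 0.825 and 0.848 CPM in LAC and at 1.89, 1.49 and 1.96 CPM in ID2. LAC overlapped NUL, with LAC_200 inside the range of NUL and the other 2 LAC animals just below it, and lay below all of ID2. In ID4 it was at 4.39, 2.39, 1.76 and 3.06 CPM, and the highest single library was ID4_13. ID6 ran from 1.36 to 3.001 CPM (median 1.64), ID8 held 0.673, 2.06 and 1.96 CPM, and REG held 1.32, 0.833, 1.92 and 2.01 CPM.

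Group means of S100a8 were 0.742 ± 0.384 CPM in NUL (SD, n = 4), 0.517 ± 0.0681 in LAC (n = 3), 0.663 ± 0.217 in ID2 (n = 3), 1.29 ± 0.503 in ID4 (n = 4), 0.951 ± 0.216 in ID6 (n = 6), 0.957 ± 0.233 in ID8 (n = 3) and 0.682 ± 0.182 in REG (n = 4). Neither gene passed the test from NUL to LAC, where the log2 fold changes were -0.51 (SE 0.384) for S100a8 and -0.70 (SE 0.402) for S100a9. Neither passed from LAC to ID2, although S100a9 did with only those libraries in the fit (edgeR adjusted p = 0.0373), 1 of 9 other fits. Neither passed in the joint test (edgeR adjusted p = 0.0762 and 0.0663). In the joint test DESeq2 called both (adjusted p = 0.0299 and 0.0112).

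Ngp and Retnlg are granulocyte genes, Ngp for a protein of the secondary granules and Retnlg for a secreted resistin-like peptide. Retnlg (ENSMUSG00000022651, chromosome 16, 48872621 to 48874496, plus strand) had 9, 0 and 6 counts in LAC and 7, 15, 9 and 20 counts in NUL. It was highest in ID6, at 0.236 to 0.804 CPM (median 0.4934), against 0.231 to 0.489 CPM in ID4 and 0.259 to 0.521 CPM in ID8. Ngp (ENSMUSG00000032484, chromosome 9, 110419747 to 110423012, plus strand) was spread widely within most stages. It ranged from 0.0912 to 0.671 CPM in NUL, from 0.138 to 0.638 in LAC, from 0.0951 to 0.182 in ID2, from 0.215 to 0.773 in ID4, from 0.0861 to 0.865 in ID6, from 0.129 to 0.388 in ID8 and from 0.0463 to 0.902 in REG. The ID4 animals of Ngp lay above all ID2 animals, with a log2 fold change of 2.06 (SE 0.834) that did not pass the test (edgeR adjusted p = 0.250). Its joint test gave an edgeR adjusted p of 0.521.

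Ly6g (ENSMUSG00000022582, chromosome 15, 75155240 to 75159126, plus strand) encodes the surface antigen most often used to sort mouse neutrophils. It had 58 counts over all 27 libraries and 0 counts in 13 of them. Counts were 0, 4, 0 and 0 in NUL, 1, 0 and 0 in LAC, 1, 3 and 1 in ID2, 6, 0, 0 and 5 in ID4, 0 to 9 in ID6, 0, 10 and 4 in ID8, and 0 in all 4 REG animals. Ly6g did not pass the filter and has no test in the fit used for the other 9 genes. In the edgeR fit without a filter, of 26430 genes, Ly6g was not called in the joint test of stage (adjusted p = 0.244) or in any comparison of 2 stages (lowest adjusted p = 0.354).

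Tested jointly for any difference among the 7 stages, 4 of the 9 genes passed, against 27% of all genes tested. They were Csf3r (edgeR adjusted p = 0.00114), Il1b (0.0154), Retnlg (0.0270) and Cxcl1 (0.0410). Without LAC_200 or LAC_213 Il1b did not pass, and without LAC_240, ID6_216 or ID6_218 Retnlg did not. Csf3r passed in all 27 fits that left out 1 animal and Cxcl1 in only 9, with edgeR adjusted p-values up to 0.115 and no call without any one of the 3 LAC animals. Of 8 other fits at the same threshold 5 called Cxcl1, and it was not called without a filter (edgeR adjusted p = 0.0695), with the sequencing runs as a covariate (0.0666) or with the title number covariate (0.0974). The other 3 genes were called in each such fit that tested them. An unadjusted p under 0.05 was reached by 7 of the 9, as by 38.9% of all genes.

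From NUL to LAC, 2 of the 9 genes were called, both lower (Csf3r and Cxcl1), where 11.2% of all genes were called and 6% called lower. The fitted change was negative for all 9, with a median log2 fold change of -0.85 against -0.0094 over all genes. All LAC animals lay below all NUL animals for 3 of 9 genes (Csf3r, Il1b and Cxcl1), where 11.2% of all genes did so. Without LAC_213 neither gene was called. Of all genes called in this comparison, 46.4% were higher in LAC, but 36.3% on the log2(TPM + 1) scale. Csf3r, Il1b and Cxcl1 kept negative signs on that scale, and Csf3r alone was called.

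From LAC to ID2, 2 of 9 genes were called, both higher (Csf3r and Cxcl1), where 16.1% of all genes were called and 8.48% called higher. The median of the 9 was 0.68, and all ID2 animals exceeded all LAC animals for 3 of them (S100a9, Csf3r and Cxcl1), as for 18.1% of all genes. Both calls stood without ID2_31, the library with pancreatic RNA. Ngp went the other way without passing, at -1.36 (SE 0.882, edgeR adjusted p = 0.322). This comparison and the one before share the LAC animals, so their opposite signs are not separate evidence.

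**Figure D2:**
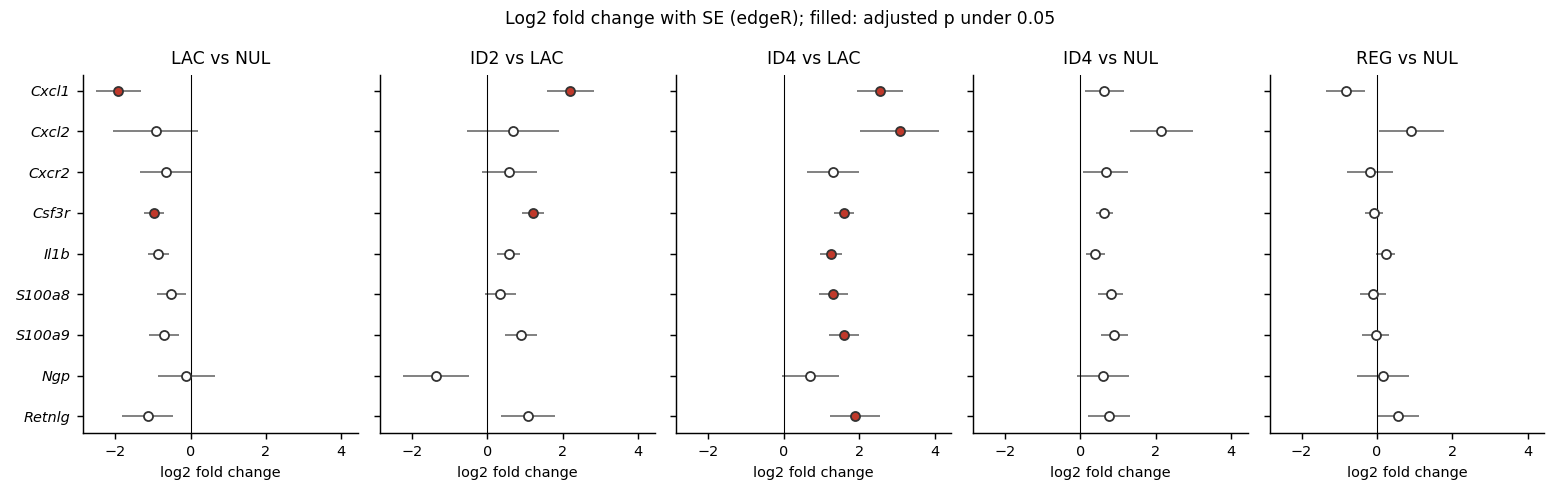
Fitted log2 fold change (horizontal axes, edgeR) with SE (lines) for the 9 tested genes in 5 comparisons, filled where the adjusted p was under 0.05. LAC against NUL and ID2 against LAC each have 2 filled points, ID4 against LAC has 7, and ID4 against NUL and REG against NUL have none.

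The later stages were set against LAC in comparisons added after the values had been seen. They share the same 3 LAC libraries, and they were picked because LAC was low, so their counts are descriptive. At ID4, 7 of 9 genes were called, all higher, where 22.4% of all genes were called and 11.5% called higher. They were Cxcl2 at a log2 fold change of 3.07 (SE 1.04), Cxcl1 at 2.55 (SE 0.614), Retnlg at 1.89 (SE 0.660), S100a9 at 1.60 (SE 0.406), Csf3r at 1.60 (SE 0.270), S100a8 at 1.31 (SE 0.384) and Il1b at 1.25 (SE 0.289). Cxcl2 rests on 4 counts in all of LAC. Cxcr2, at 1.31 (SE 0.685), and Ngp, at 0.70 (SE 0.757), did not pass. All ID4 animals were above all LAC animals for 8 of the 9, as for 15.7% of all genes. Csf3r, Cxcl1, Il1b and S100a9 were called in each of the 7 fits that left out 1 animal. Those 4 were the only ones called without LAC_240. S100a8 was not called without ID4_13 either, nor Retnlg without LAC_213, ID4_13 or ID4_215, nor Cxcl2 without LAC_200, LAC_213, ID4_15 or ID4_215. The log2 fold change of Retnlg was 2.61 without LAC_200 and 1.32 without LAC_213. Of 8 other fits at the same threshold that tested them, Cxcl2 was called in 5 and Retnlg in 6. Cxcl2 was not called without a filter (edgeR adjusted p = 0.0636), with the title number covariate (0.0871) or on the log2(TPM + 1) scale (0.0546, limma), where its level was below the pseudocount in every library and the change was 0.30. Retnlg was not called with the title number covariate (0.0613) or with only the LAC and ID4 libraries in the fit (0.0876). The other 5 genes were called in all 9 such fits.

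At ID6, 4 genes were called higher than in LAC (Csf3r, Retnlg, Il1b and Cxcl1), against 16.4% of all genes called and 8.44% called higher. Retnlg was at 2.55 (SE 0.634), Cxcl1 at 1.76 (SE 0.574), Csf3r at 1.42 (SE 0.256) and Il1b at 1.17 (SE 0.273). Retnlg was called in all 9 fits that left out 1 animal, but its log2 fold change was 3.26 without LAC_200 and 1.97 without LAC_213. The LAC libraries hold 9, 0 and 6 counts of Retnlg. Cxcl1 lost its call in 7 of those 9 fits: without any of the 3 LAC animals, and without ID6_201, ID6_216, ID6_218 or ID6_230. The same 4 names were called at ID8, where 12.8% of all genes were called and 6.73% called higher, with 1 to 4 called when 1 animal was left out. Only Csf3r was called there without LAC_213, and Csf3r and Il1b without LAC_240, ID8_14 or ID8_98b. Over the 6 fits that left out 1 animal, the log2 fold change of Retnlg at ID8 ran from 1.62 to 2.91. All 3 ID8 animals carry title numbers under 200 and all LAC animals numbers of 200 or more. With that division as a covariate, none of the 9 was called, and over all genes 621 were called in place of 2110. The fitted rises of the 4 genes were then 1.13 for Csf3r, 2.33 for Retnlg, 1.26 for Il1b and 2.44 for Cxcl1, against 1.38, 2.20, 1.21 and 2.21 without it. At REG, Csf3r (0.88, SE 0.268) and Il1b (1.08, SE 0.288) were called, against 11.7% of all genes called and 6.36% called higher. Neither was called without LAC_213, and only Il1b without LAC_240, REG_234 or REG_239. Among all genes called, 51.4% were higher in ID6 than in LAC and 54.1% higher in REG, but 75.9% and 73.0% on the log2(TPM + 1) scale.

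Against NUL none of the 9 genes was called by edgeR at ID2, ID4, ID6, ID8 or REG. The share of all genes called was 3.24%, 4.25%, 1.08%, 0.499% and 0.0852%. At an unadjusted p under 0.05 there were 0, 4, 2, 0 and 0 of the 9, where 16.9%, 18.6%, 11.9%, 12.8% and 7.17% of all genes were. DESeq2 and each other setting also gave 0 calls. ID4 came closest. All 9 fitted changes were positive there, with a median of 0.67 against -0.016 over all genes, and S100a8 (0.80, SE 0.339), S100a9 (0.90, SE 0.355), Csf3r (0.64, SE 0.234) and Cxcl2 were those with an unadjusted p under 0.05. Only for Cxcl2, 1 of 9, did the 4 ID4 animals all exceed the 4 NUL animals, as 6.17% of all genes did. At REG the median was -0.032, with 4 genes positive and 5 negative. Consecutive stages after ID2 gave 0 calls too, with 4 of the 9 under an unadjusted p of 0.05 from ID2 to ID4 (13.9% of all genes) and 0 in the others (22.9%, 20.5% and 9.02% of all genes in order of stage) by edgeR, and with 0 calls by DESeq2. The share of all genes called was 1.49% from ID2 to ID4, 8.53% from ID4 to ID6, 4.12% from ID6 to ID8 and 0.0487% from ID8 to REG.

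The genes were also compared with one another across the 27 libraries, as a description without a test. Over the 15 pairs of S100a8, S100a9, Ngp, Cxcr2, Csf3r and Retnlg, Pearson's r of log2 CPM ran from 0.29 to 0.77 with a median of 0.56. After the stage means were subtracted it ran from 0.33 to 0.72 with a median of 0.48, and all 15 stayed positive. Il1b, itself one of the markers, had a median r of 0.35 with those 6 over the libraries (-0.11 to 0.61) and 0.019 within stages (-0.48 to 0.23). Cxcl1 or Cxcl2 with one of the 7 tested markers gave 14 pairs, with a median r of 0.37 over the libraries (0.064 to 0.68) and -0.0065 within stages (-0.14 to 0.32). S100a8 with S100a9 was the highest pair (0.77, and 0.72 within stages), and Il1b with Ngp the lowest within stages. These values describe 27 libraries that share tissue and processing.

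**Figure D3:**
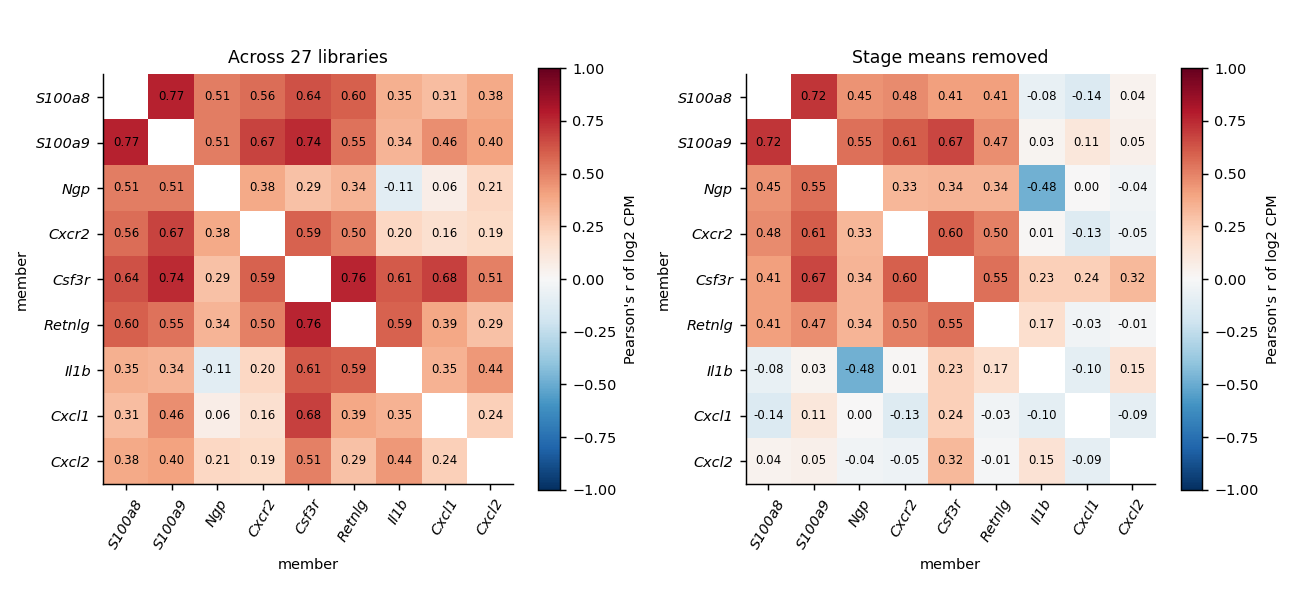
Pearson's r of log2 CPM between the 9 tested genes over 27 libraries (left) and after subtracting each stage's mean (right), on a scale from -1 to 1. On the right, the block of 6 markers at the upper left is positive throughout (0.33 to 0.72), and the values of Il1b, Cxcl1 and Cxcl2 with those 6 run from -0.48 to 0.32.

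The other genes tested, those with placeholder symbols aside, were ranked by likeness. Those most like S100a8 over the 27 libraries included Chmp1b (r = 0.75), Pwwp2b (0.75), Raver2 (0.74) and Scp2 (0.72), which encodes a sterol carrier. Those most like Cxcl1 were Rnase4 (0.76), Hc (0.73), Slc13a5 (0.73), Fes (0.73) and Lsm6 (0.73), and Hc encodes complement component C5. The genes followed here were left out of this ranking, so it could not return any of the neutrophil markers. Within stages the r of these 9 with the gene they resemble was 0.34 to 0.69.

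Other genes of the neutrophil were taken from lists. Their counts stand beside the shares of all genes tested, which from NUL to LAC were 11.2% called and 6% called lower, from LAC to ID2 16.1% called and 8.48% higher, and from LAC to ID4 22.4% called and 11.5% higher. Of 23 granule and antimicrobial genes 18 were tested, and 4 were called from NUL to LAC, all lower, with a median log2 fold change of -0.64. Lcn2 (-2.86, SE 0.877), Lrg1 (-1.84, SE 0.516) and Anxa1 (-0.94, SE 0.141) were the 3 with the largest change and no overlap. From LAC to ID2 these 3 of the 18 were called, all higher, where 16.1% of all genes were called and 8.48% called higher. From LAC to ID4, 6 were called, all higher. Lcn2 averaged 1.96 ± 0.0878 CPM in LAC (SD, n = 3) and 85.8 ± 57.0 CPM in ID4 (n = 4). Lcn2, Lrg1 and Wfdc21 are also made by hepatocytes, and Lrg1 (223 TPM on average) and Wfdc21 (2720 TPM) were far above the markers S100a8 and S100a9. Of the stricter granule genes, Mpo averaged 0.181 TPM, Elane 0.216, Camp 0.362, Ltf 0.434 and Mmp8 0.0537 TPM. These 5 had 169 to 423 counts each over the 27 libraries, and none was called from NUL to LAC, from LAC to ID2 or in the joint test.

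Of 22 genes for neutrophil receptors and adhesion, 18 were tested. From NUL to LAC 8 were called, all lower, with a median of -0.73. From LAC to ID2 9 were called and from LAC to ID4 13, all higher, with medians of 0.82 and 1.25. Itgam, the integrin subunit CD11b, averaged 1.21 ± 0.184 CPM in NUL (SD, n = 4), 0.495 ± 0.0613 in LAC (n = 3), 1.31 ± 0.283 in ID2 (n = 3) and 1.90 ± 0.465 in ID4 (n = 4). Itgam in the LAC animals did not overlap with any of the other 3 groups. Its counts were not whole in 5 libraries, where RSEM divided shared reads. Tlr4, the endotoxin receptor, was 1.02 lower in LAC than in NUL on the log2 scale (SE 0.201). All 6 genes of the phagocyte NADPH oxidase, the enzyme of the oxidative burst, were called lower in LAC than in NUL (median -0.63), 4 were called higher at ID2 and all 6 at ID4 than in LAC. Cybb, its catalytic subunit, went from 13.1 CPM in NUL to 7.95 ± 0.762 in LAC (SD, n = 3) and 22.0 ± 4.27 in ID4 (n = 4). Itgam, Tlr4 and the oxidase are shared with monocytes and macrophages. Of 6 tested granulocyte transcription factors, Spi1 alone was called lower in LAC (-0.76, SE 0.178).

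Among 19 other chemoattractants and growth factors of granulocytes, 12 were tested and 7 were called from NUL to LAC, 5 lower and 2 higher. Ccl2, which attracts monocytes, was at 0.725 ± 0.211 CPM in NUL (SD, n = 4), 0.207 ± 0.136 in LAC (n = 3), 0.619 ± 0.277 in ID2 (n = 3) and 1.46 ± 0.698 in ID4 (n = 4). Ccl7 had 0 counts in all LAC libraries, and against a floor of 3 counts per library its mean was at least 1.37-fold higher in NUL, 2.50-fold in ID2 and 6.69-fold in ID4. Csf3, the ligand of the Csf3r receptor, and Il17a had 0 counts in all 27 libraries. From LAC to ID4, 7 genes of this list were called higher and 1 lower. Of 6 endothelial adhesion genes, 2 were called lower from NUL to LAC and 5 higher from LAC to ID4. Vcam1 led at both steps (-0.66, SE 0.143, and 1.31, SE 0.145).

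Of 16 other genes of the interleukin-1 system, all tested, 5 were called lower from NUL to LAC (median -0.52), where 6% of all genes were. From LAC to ID2, 3 were called higher against 8.48% of all genes, and from LAC to ID4, 11 against 11.5%. Casp1, the protease that matures interleukin-1 beta, was lower by 0.85 in LAC (SE 0.224). Il1rn, the receptor antagonist, was at 0.995 ± 0.330 CPM in NUL (SD, n = 4), 0.672 ± 0.165 in LAC (n = 3), 1.92 ± 0.379 in ID2 (n = 3) and 3.09 ± 0.989 in ID4 (n = 4). Against NUL, Il1rn was called higher at ID4 by 1.63 (SE 0.278, edgeR adjusted p = 0.000799), unlike Il1b itself (0.40, SE 0.254, adjusted p = 0.427). The difference between these 2 genes was not tested.

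Markers of other cells moved in the same comparisons. In bulk liver fewer cells of a type and less RNA per cell cannot be told apart, and neither can a change in these cells and a change in the other RNA of the library. From NUL to LAC, where 11.2% of all genes were called and 6% called lower, 8 of 10 Kupffer cell and macrophage markers were called lower (median -0.61), 5 of 7 monocyte markers (-1.04), 3 of 8 T and NK cell markers (-1.25), 2 of 5 B cell markers (-1.19), 3 of 5 stellate cell markers (-0.46), 2 of 5 bile duct markers (-0.29) and 1 of 5 sinusoidal endothelium markers (-0.28). None of the 4 tested platelet markers and none of the 6 tested erythroid markers was called there by edgeR, and none had an unadjusted p under 0.05, which 23.6% of all genes had. Only 1 eosinophil, basophil or mast cell marker of 6 was abundant enough to test, and it was not called. From LAC to ID2, 7 of the 10 Kupffer cell and macrophage markers were called higher, where 8.48% of all genes were. From LAC to ID4 all 10 were called higher, where 11.5% of all genes were. At that step 3 of 8 T and NK cell and 1 of 5 each of B cell and bile duct markers were too. From NUL to ID4, 6 of the 10 Kupffer cell and macrophage markers were called higher, where 4.25% of all genes were called.

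Summed over the 8 neutrophil markers, the level ran from 10.8 to 22.5 TPM in NUL, 7.50 to 11.8 in LAC, 14.1 to 17.3 in ID2, 17.2 to 36.0 in ID4, 18.9 to 26.7 in ID6, 11.8 to 22.4 in ID8 and 12.0 to 21.8 in REG. Beside it, the Kupffer cell and macrophage sum ran from 451 to 537 TPM in NUL, 274 to 369 in LAC, 402 to 472 in ID2 and 627 to 744 in ID4. Monocyte markers summed to 24.5 to 33.4 TPM in NUL, 13.8 to 17.0 in LAC, 26.2 to 28.5 in ID2 and 28.3 to 37.4 in ID4. In both of these lists LAC lay below the 3 other groups without overlap, which the neutrophil sum did for ID2 and ID4 but not for NUL. The sum of 6 hepatocyte markers was higher, with 133730 to 155390 TPM in LAC and 77401 to 99234 TPM in NUL, and albumin, Alb, carried this. Alb averaged 61356 TPM in NUL and 113060 TPM in LAC, a log2 fold change of 0.98 (SE 0.144). Without Alb the other 5 summed to 27391 to 28377 TPM in LAC, inside the 24652 to 32263 TPM of NUL. Of the 6, 2 were called higher in LAC and 1 lower, Cyp2e1, a cytochrome P450 (3240 TPM in NUL and 1080 TPM in LAC). Of 9 acute phase genes of hepatocytes 2 were called lower from NUL to LAC and 6 higher from NUL to ID4 (4.25% of all genes were called there), and their sum averaged 17284 TPM in ID4 against 9214 TPM in NUL. Red cell genes summed to 1144 to 2408 TPM in NUL and 2253 to 3336 TPM in LAC. Of 11 clock genes, which follow the time of day, 0 were called from NUL to LAC, 4 from LAC to ID2, where 16.1% of all genes were, and 5 from NUL to ID2, where 3.24% of all genes were. The part of these other cells, of blood and of time of day in the results for the 10 genes was not tested.

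**Figure D4:**
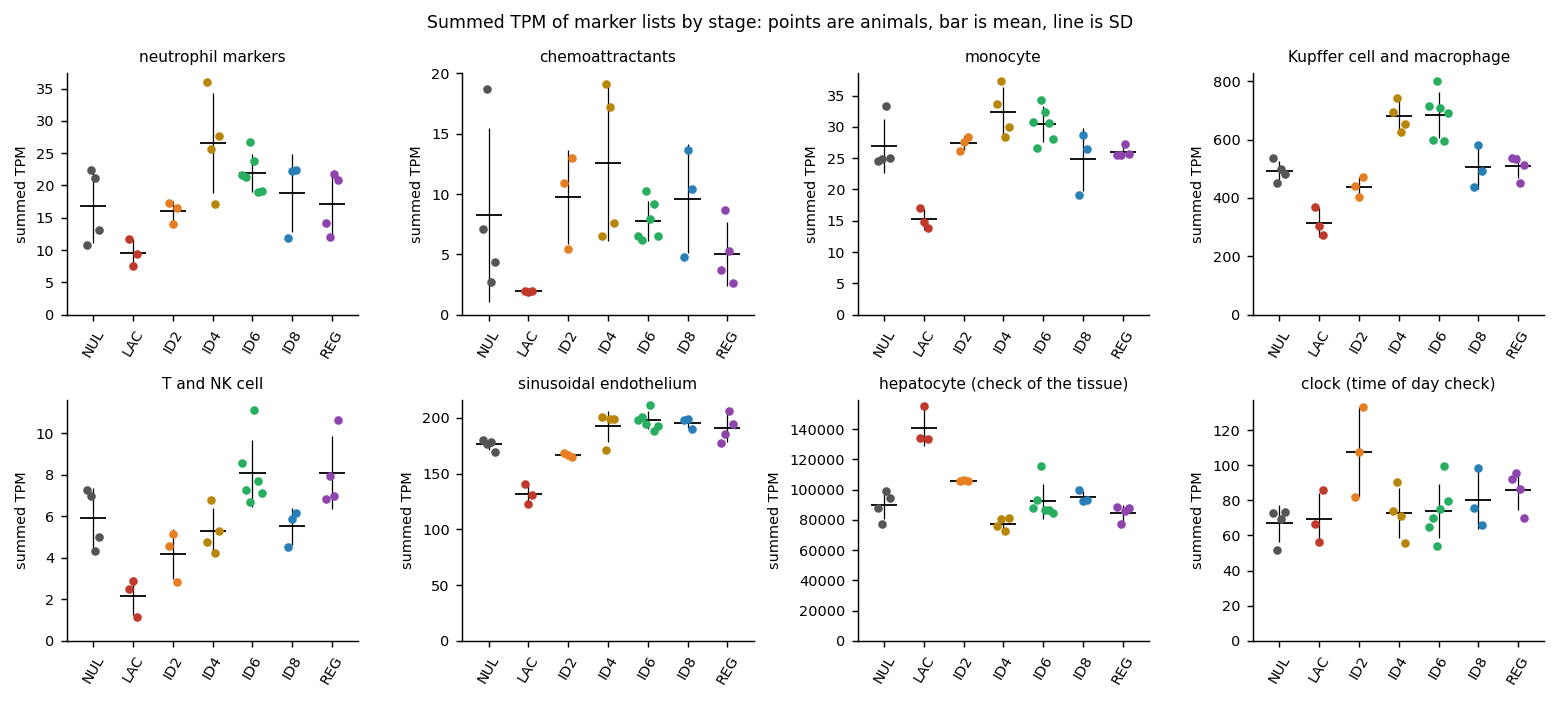
Summed TPM of 8 gene lists (vertical axes, from 0) in each animal (points) by stage, with the mean (bar) and SD (line). Neutrophil, chemoattractant, monocyte, Kupffer cell, T and NK cell and endothelial sums have their lowest mean in LAC, and the hepatocyte sum, most of which is Alb, has its highest mean there.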

How the data were processed

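RNA was extracted with Trizol and libraries were made with NEBNext Ultra, per the labels' protocols. The submitters' processing notes name STAR 2.6.1a, RSEM 1.3.1, mm10 and GRCm38. The deposited expected counts are RSEM's estimates of reads per gene and are not normalised between libraries, per the file headers. Deposited TPM values are scaled for gene length, per the file headers, and RSEM's effective length is deposited as a score in bases. The use of strand is not given in the sources used here. Symbols and positions came from GENCODE M21 by identifier (51633 of 51826 matched), and the 10 genes had whole counts in every library. Upstream sequences came from RefSeq on GRCm38.p6.

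Counts were rounded and fitted in R 4.3.3 with edgeR 4.0.16 (filterByExpr by stage, TMM, robust glmQLFit, two-sided glmQLFTest) on all 27 libraries and 7 groups, common dispersion 0.0360. The threshold for a call was 0.05 on p-values adjusted by Benjamini-Hochberg over 16428 genes. CPM is TMM-scaled, and SE is the log2 fold change over the root of its F statistic. The 11 planned comparisons set each stage against NUL and against the stage before it. Comparisons of ID4, ID6, ID8 and REG with LAC were added after the values had been seen. The genes, lists and rules were chosen with earlier results of these data known. From each list up to 3 called genes without overlap and with the largest change are named, and any others named were chosen after their values were seen. A few genes that these rules select are not reported here. Likeness is the highest Pearson's r of log2 CPM (prior count 1). Alternatives were DESeq2 1.42.0, limma 3.58.1 on log2(TPM + 1) and log2(TPM + 0.1), RLE scaling, other filters, covariates for sequencing runs (16 libraries had 2 runs, 11 had 1) and for title numbers under 200, only the compared groups, a threshold of 0.01, and leaving out each animal. The edgeR fit was tested on simulated counts for LAC against NUL only, with the same dispersion for every gene. No other fit or comparison was tested in this way. Animals are separate in the titles, but litters and cages are not given. P-values therefore measure the spread between these samples.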

Additional observations from a re-analysis of the deposited data

Results flagged for a closer look

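Ly6g in NUL_221 stood apart from the other 3 nulliparous animals, at 0.0610 CPM (4 counts) against 0 counts in each of the others. A value apart from its set is met by chance in about 1 of 20 sets, but this rate does not apply here. Where the other 3 animals hold 0 counts, any count at all is flagged. The sets examined were 39, each of 1 gene in 1 group of 4 to 6 animals.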

How the results depend on the processing

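No value of the 10 genes that was called changed sign in any alternative. Among the 9 tested genes, the number called in the joint test went from 4 to 1 at a threshold of 0.01, to between 3 and 6 in the other fits at 0.05 (6 with DESeq2), and to between 2 and 5 when 1 animal was left out. For LAC against NUL the 2 calls became 0 at 0.01 and 1 each on log2(TPM + 1), without a filter and with the title number covariate (Csf3r) and with only the compared groups (Il1b), and 0 to 2 with 1 animal left out. On log2(TPM + 0.1) and with the covariate for sequencing runs the calls were Il1b and Csf3r, not Cxcl1, and DESeq2 called all 3. For ID2 against LAC the 2 calls became 1 at 0.01 and 1 with the title number covariate, 3 with only the compared groups (S100a9 added), and 1 to 2 with 1 animal left out. Against LAC, ID4 went from 7 to 4 at 0.01 (4 to 7 with 1 animal left out) and ID8 from 4 to 2 at 0.01 and 0 with the title number covariate (1 to 4 with 1 animal left out). REG went from 2 to 0 at 0.01 and to 1 on log2(TPM + 1) and with only the compared groups, and to 3 (Retnlg added) with DESeq2 and on log2(TPM + 0.1) (0 to 3 with 1 animal left out). ID6 against LAC gave 3 to 6. A threshold of 0.01 calls fewer genes by construction, and for the rest the cause was not tested. The 9 comparisons with 0 calls gave 0 in each alternative. Total counts were lowest for Ly6g (58), Cxcl2 (145), Cxcr2 (441) and Retnlg (549), where few reads limit the precision. No paired analysis was possible because no title number occurs in more than 1 group.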
